A study of Mus musculus with 34 samples.

Results

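Afp, Gpc3, Igf2bp1, Igf2bp3, Lin28b, Prom1, Cd44 and Myc are 8 genes that are read as oncofetal or progenitor genes in the liver, and they were chosen by name, not by any value measured here. The rule took the rows with these symbols from a table of normalized counts (14086 genes, 18 libraries) and from a table of z-scores (1659 genes). A row was found for 7 of the 8, in the counts and in the z-scores alike. Lin28b, which encodes an RNA-binding protein that blocks maturation of the let-7 microRNAs, had none and is not analysed here. Gpc3, Cd44 and Igf2bp3 had a mean of at least 10 normalized counts over the 18 libraries. Afp, Prom1, Igf2bp1 and Myc had a mean below 10.

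The samples are mouse liver, and per the labels' protocols all came from a hydrodynamic injection model of liver cancer, in which a rapid large-volume injection carries DNA into hepatocytes. RNA was total RNA from frozen liver tumours, made into strand-specific libraries. The series compares liver tumour subtypes that arise with forms of beta-catenin lacking an exon, a protein that carries the Wnt signal to the nucleus. The labels give neither strain nor age nor time after injection, and name no promoter or cell type for the constructs. Whether the replicates are different animals is not in the labels, and every p-value below therefore sets a difference against a spread between libraries that may be technical.

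The normalized counts cover wild type liver (2 libraries), the β-catenin skip 1 isoform alone (3, here skip1 alone), the skip 2 isoform alone (2, skip2 alone), the skip 1 isoform induced (5, skip1 induced), the skip 2 isoform induced (2, skip2 induced) and ΔN90-β-catenin induced (4, dN90 induced), a form without the N terminus that marks beta-catenin for destruction. The labels do not say what "induced" entails. The first 3 groups, 7 libraries in all, are called non-induced below, and the last 3 groups hold 11 libraries. For the 4 skip2 samples another label field repeats skip 1. The label that says skip 2 was used, so each skip2 result rests on that choice. The z-scores add subtype A (4), subtype B (9) and a control labelled sgActin and YAPS127A (3), a guide against actin with an activated form of YAP, for which only z-scores were used.

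Oncofetal genes are active in fetal liver, are switched off after birth and can come back in liver tumours. Afp encodes alpha-fetoprotein, the main serum protein of the fetus. Gpc3 encodes glypican-3, a heparan sulfate proteoglycan of the cell surface, and both proteins are used as markers of human hepatocellular carcinoma. Igf2bp1 and Igf2bp3 bind and stabilize mRNAs, Igf2 and Myc mRNA among them. Prom1 (CD133) and Cd44, the hyaluronan receptor, are surface proteins used to mark progenitor-like and tumour-initiating cells, and Cd44 and Myc are textbook Wnt target genes. In bulk liver, fewer cells of a type and less RNA per cell cannot be told apart.

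Estimated reads per library ran from 361772 to 933146. Both skip2 induced libraries were the deepest, at 815419 and 933146, against at most 734822 in every other library. A single read was worth 0.46 to 1.64 normalized counts, so most values of the low members rest on few reads. Hepatocyte markers were high in all 18 libraries, with the sum of 10 genes at 71030 to 94886 normalized counts in the 7 non-induced libraries and 25529 to 65792 in the 11 induced ones. Cholangiocyte markers (8 of 10 in the table) summed to 14.6 to 45.6 and 170 to 812, macrophage markers (10 of 10) to 238 to 364 and 319 to 671, stellate and fibroblast markers (8 of 8) to 66.5 to 126 and 97.0 to 368, and proliferation genes (9 of 9) to 23.5 to 42.1 and 88.7 to 232. Endothelial markers (9 of 9) summed to 358 to 445 and 220 to 439, and T and NK cell (4 of 8), B cell (3 of 4) and neutrophil markers (2 of 5) to at most 4.35 and 18.1. None of these markers in the table was at 0 in all 7 or in all 11 libraries, while Epcam and Krt7 were at 0 in 6 of the 7. These sums moved with the induced condition, and their part in the results below was not tested.

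The 250 bases before the RefSeq start (build GRCm38.p6) are shown for the 2 members whose levels were farthest apart in behaviour, Gpc3 and Afp, with motif matches in capitals. RefSeq entries were used for 6 of the 8 genes, and Igf2bp1 and Myc were not matched. Gpc3 lies on the minus strand of the X chromosome (52272426 to 52613950 in GENCODE, mm10) and Afp on the plus strand of chromosome 5 (90490737 to 90508907).
Gpc3, chrX:52613975-52614224, minus strand: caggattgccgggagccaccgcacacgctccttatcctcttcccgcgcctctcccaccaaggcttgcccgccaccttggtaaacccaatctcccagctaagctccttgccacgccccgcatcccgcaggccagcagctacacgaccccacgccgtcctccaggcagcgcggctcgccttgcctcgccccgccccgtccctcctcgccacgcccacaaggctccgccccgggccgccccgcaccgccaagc
Afp, chr5:90490464-90490713, plus strand: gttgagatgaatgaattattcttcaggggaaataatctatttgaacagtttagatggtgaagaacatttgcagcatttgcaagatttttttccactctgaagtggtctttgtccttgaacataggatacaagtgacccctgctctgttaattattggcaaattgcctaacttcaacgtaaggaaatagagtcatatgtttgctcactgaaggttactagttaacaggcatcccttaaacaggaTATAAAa
The Gpc3 stretch was 71.6% GC and the Afp stretch 36% GC, against a median of 52.4% over 32851 RefSeq promoter windows of the same length (5th to 95th percentile 34.8% to 73.6%). Letters known as binding motifs were searched on both strands. For TCF/LEF factors they were CTTTGAA, held by 4.46% of those windows, and, as a second form, CTTTGAT, held by 3.21%. For TEAD factors the letters CATTCC were searched, found in 12.6% of windows. The E-box letters CACGTG occurred in 6.02%, and the TATA box letters TATAAA in 12.4%. The motifs share no letters in these windows. Afp held TATAAA, beginning 7 bases before the RefSeq start, and Gpc3 held none of the 5. The GENCODE start of Afp (90490737) lies downstream of the end of its window (90490713). Among the other members with an entry, Igf2bp3 and Lin28b each held 1 CACGTG, and Prom1 and Cd44 held none. A match is a description of the letters and not a binding site.

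Gpc3 was near 0 in every non-induced liver and at 58.6 or more in every induced sample. Wild type libraries had 1.13 and 0 normalized counts, skip1 alone 0, 1.15 and 2.13, and skip2 alone 1.16 and 0, which correspond to at most 2 reads each. Skip1 induced libraries had 93.6, 80.5, 101, 112 and 58.6, skip2 induced 192 and 163, and dN90 induced 139, 109, 159 and 240. The lowest induced library was thus far above the highest non-induced one. By group mean the order was skip2 induced (177 ± 20.6, SD, n = 2), dN90 induced (162 ± 56.2, n = 4) and skip1 induced (89.2 ± 20.6, n = 5), with the first 2 closer than their SD. The 3 non-induced groups, at 0.566 ± 0.801 (n = 2) to 1.09 ± 1.07 (n = 3), did not differ beyond their spread.

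On the log2(normalized count + 1) scale, Gpc3 rose by 5.54 in skip1 induced against skip1 alone (SE 0.36, limma adjusted p = 5.78e-09), by 6.92 in skip2 induced against skip2 alone (SE 0.49, limma adjusted p = 1.63e-08) and by 6.62 in dN90 induced against the mean of the 3 non-induced groups (SE 0.31, limma adjusted p = 3.54e-12). The dN90 comparison uses the same non-induced libraries as the other 2, so the 3 are not independent. A limma test with Benjamini-Hochberg adjustment over all 6592 genes with a mean of at least 10 was used, and a gene was called at an adjusted p under 0.05. Gpc3 was the 1 member called of the 3 tested for skip1, where 14.7% of all genes were called, and again the 1 called for skip2, where 14.9% were called. For dN90 it was 1 of 2 called, beside Cd44, where 37.5% of all genes were called. Gpc3 and Cd44 passed the mean of 10 through the induced libraries only, so these counts are no support for the members as a set. The Cd44 mean was 7.68 in the non-induced and 16.5 in the induced libraries.

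**Figure D1:**
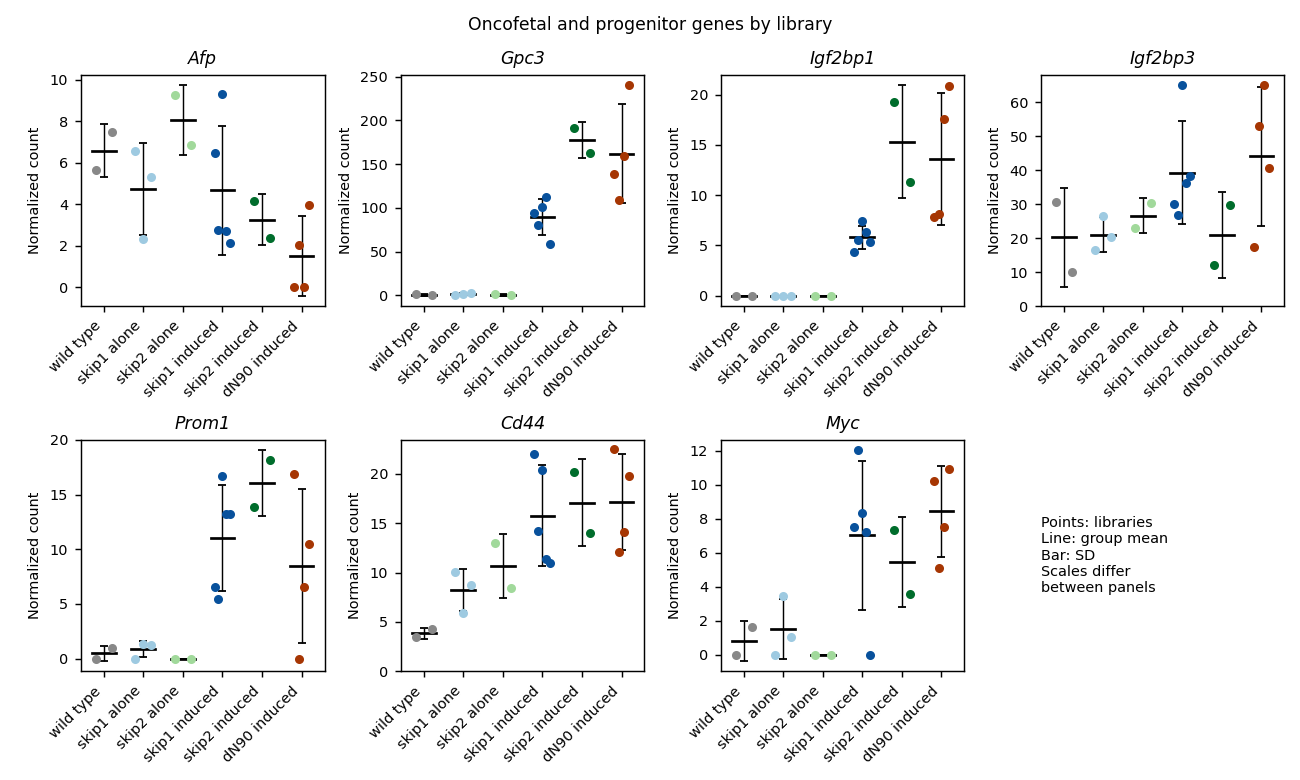
Normalized counts of the 7 measured genes (vertical axis, scale set per panel) in 18 libraries of 6 groups (horizontal axis); points are libraries, lines group means and bars SD. Gpc3 is at 2.13 or less in the 7 non-induced libraries and at 58.6 to 240 in the 11 induced ones, Igf2bp1 is at 0 in the 7 and at 4.30 to 20.9 in the 11, and Igf2bp3 and Afp overlap between the 2 kinds of sample.

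Among the other glypicans and genes of heparan sulfate synthesis (14 listed, 8 tested), 0 were called in skip1 induced against skip1 alone by limma. Ext2, a subunit of the heparan sulfate polymerase, rose in skip2 induced (log2 difference 1.43, limma adjusted p = 0.00853). In dN90 induced its partner Ext1 rose (0.64, limma adjusted p = 0.0320), and Sdc4, another heparan sulfate proteoglycan (-0.68, limma adjusted p = 0.00358), and Ndst1, a heparan sulfate sulfotransferase (-0.58, limma adjusted p = 0.00922), fell. The median differences of the 8 were -0.21, -0.01 and -0.01, against -0.02, -0.06 and 0.01 over all genes tested. Of those genes 14.7%, 14.9% and 37.5% were called in either direction in the skip1, skip2 and dN90 comparisons.
The genes whose log2 values were most like Gpc3 over the 18 libraries were Anxa5 (Pearson r = 0.980), Gas6 (0.977) and Sptbn1 (0.973). Like Gpc3 they separated the 2 kinds of sample, with Anxa5 at 24.9 to 35.7 and at 122 to 218 normalized counts. These correlations describe libraries that fall into separate clusters, and no p is given.

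Igf2bp1 was listed at 0 in all 7 non-induced libraries and above 0 in all 11 induced ones. Skip1 induced libraries had 4.30, 5.55, 7.43, 6.32 and 5.32 normalized counts, skip2 induced 19.3 and 11.3, and dN90 induced 7.87, 8.16, 17.6 and 20.9. These stand for 4 to 42 estimated reads. A count of 3 reads would be worth 2.49 to 4.93 normalized counts in the 7 non-induced libraries, so the lowest induced value lies under the limit that the shallowest of them allows, for counting error only. No fold is given against groups listed at 0.
Igf2bp1 was tested without the filter on the mean, over 14086 genes, in which 9.58%, 8.21% and 24.8% of genes were called in the skip1, skip2 and dN90 comparisons. It rose in skip1 induced (log2 difference 2.75, SE 0.43, limma adjusted p = 0.000161), in skip2 induced (3.98, SE 0.59, limma adjusted p = 6.04e-05) and in dN90 induced (3.75, SE 0.37, limma adjusted p = 1.63e-08). With a pseudocount of 5 these differences were 1.10, 1.99 and 1.83. Groups that are all 0 add no spread to the pooled error, which makes it smaller. When only the 4 skip2 libraries were fitted, the skip2 difference kept its size and the limma adjusted p was 0.0535.
Gpc3 and Igf2bp1 were the 2 members above every non-induced library in every induced one, a pattern held by 2.29% of all genes (322 of 14086).

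Igf2bp3, the paralog, was measured in all 18 libraries, and its induced and non-induced libraries overlapped. Wild type libraries had 30.6 and 9.97 normalized counts, skip1 alone 16.4, 26.5 and 20.2, and skip2 alone 23.1 and 30.2. The skip1 induced group had 30.1, 26.8, 65.0, 36.1 and 38.3, skip2 induced 11.95 and 29.8, and dN90 induced 17.3, 53.1, 65.2 and 40.7. The highest values were in skip1 and dN90 induced libraries, and the lowest dN90 library lay inside the non-induced range. Group means ran from dN90 induced (44.1 ± 20.5) and skip1 induced (39.3 ± 15.1) down to skip2 alone (26.7 ± 5.02), skip1 alone (21.1 ± 5.06), skip2 induced (20.9 ± 12.6) and wild type (20.3 ± 14.6), and neighbours in that order lay within an SD of each other except skip2 alone and skip1 alone, whose libraries overlapped. Igf2bp3 passed the test in none of the 3 comparisons, with log2 differences of 0.83 (95% interval -0.01 to 1.66, limma adjusted p = 0.183), -0.46 (-1.60 to 0.68, limma adjusted p = 0.639) and 0.87 (0.15 to 1.59, limma adjusted p = 0.0540). The dN90 difference was 1.25 (limma adjusted p = 0.00586) without dN90 replicate 1, 1.12 (limma adjusted p = 0.0151) without wild type replicate 1 and 0.92 (limma adjusted p = 0.0499) without skip1 alone replicate 2. It was also called with voom on estimated reads (1.39, limma adjusted p = 0.00443) and with a pseudocount of 5 (0.77, limma adjusted p = 0.0455). With log2 depth as a covariate the difference was 0.33 (limma adjusted p = 0.538). The genes most like it were Itga2 (r = 0.916), Cr2 (0.899) and Mrpl19 (0.859) over the 18 libraries.

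Of 17 further fetal liver and oncofetal genes, 12 were in the table and 3 had a mean of at least 10: H19, an imprinted non-coding RNA, Scd2, a desaturase, and Mest, an imprinted gene. In skip1 induced 1 of the 3 rose (H19, log2 difference 2.67, limma adjusted p = 0.00705). In skip2 induced H19 (6.62) and Scd2 (3.62) rose and Mest fell by 1.23, with limma adjusted p-values of 2.67e-05, 0.00229 and 0.0266. In dN90 induced H19 (5.26, limma adjusted p = 2.10e-07) and Scd2 (2.19, limma adjusted p = 0.000974) rose. Of the Lin28 and let-7 axis (14 listed, 5 tested), Dgcr8, a subunit of the microRNA-processing complex, rose in skip1 induced (1.07, limma adjusted p = 0.0146). Nras, a let-7 target, rose in dN90 induced (0.66, limma adjusted p = 0.0179). By limma 0 of the 5 rose and 1 fell in skip2 induced, and 1 rose and 1 fell in dN90 induced. For comparison, 14.7%, 14.9% and 37.5% of all genes tested were called in either direction in the skip1, skip2 and dN90 comparisons. Few genes of either list were tested, and the filter on the mean favours genes high in the induced libraries. The counts are therefore no support for either list as a set.

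Afp did not rise in any induced group. Wild type libraries had 5.66 and 7.48 normalized counts, skip1 alone 6.58, 2.30 and 5.33, and skip2 alone 9.25 and 6.87. Skip1 induced libraries had 6.46, 2.78, 9.29, 2.71 and 2.13, skip2 induced 4.14 and 2.38, and dN90 induced 0, 2.04, 0 and 3.97. All values rest on at most 10 reads. The 2 libraries at 0 were both dN90 induced, and both skip2 induced libraries were below both skip2 alone libraries.
Afp fell in dN90 induced (log2 difference -1.86, SE 0.47, limma adjusted p = 0.00409 without the filter), by 0.84 with a pseudocount of 5. In skip2 induced the difference was -1.11 (95% interval -2.63 to 0.42, limma adjusted p = 0.422) and in skip1 induced -0.09 (-1.21 to 1.02, limma adjusted p = 0.945), a direction that turns with the library left out. Of 12 genes known to regulate Afp, 10 were tested, and 0 were called in skip1 and skip2 induced by limma. In dN90 induced Zfhx3, a repressor of the Afp enhancer, rose (0.71, limma adjusted p = 0.0146) and Zbtb20, which represses Afp after birth, fell (-0.67, limma adjusted p = 0.0190). In that dN90 comparison 37.5% of all genes tested were called in either direction. Zhx2, also a postnatal repressor of Afp, was at 8.24 to 25.6 normalized counts in the non-induced and 12.1 to 23.2 in the induced libraries.

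Prom1 was at 0 to 1.34 normalized counts in the 7 non-induced libraries. Wild type libraries had 0 and 0.971, skip1 alone 0, 1.34 and 1.25, and both skip2 alone libraries were listed at 0. Skip1 induced libraries had 6.51, 5.41, 16.7, 13.2 and 13.2, skip2 induced 13.9 and 18.2, and dN90 induced 16.9, 0, 6.51 and 10.4. Only dN90 replicate 2, at 0, overlapped the non-induced libraries. Prom1 rose in skip1 induced (log2 difference 2.68, SE 0.64, limma adjusted p = 0.00765), in skip2 induced (4.08, SE 0.88, limma adjusted p = 0.00353) and in dN90 induced (2.22, SE 0.55, limma adjusted p = 0.00385), all without the filter. With a pseudocount of 5 the differences were 1.40, 2.06 and 1.12. The skip1 call was lost without skip1 alone replicate 1 (2.28, limma adjusted p = 0.0517), and the skip2 call with log2 depth as a covariate (3.19, limma adjusted p = 0.0885).
Cells of bile ducts also express Prom1. The summed cholangiocyte markers were lowest among induced libraries in dN90 replicate 2 (170), where Prom1 was at 0, and were 241 in dN90 replicate 1, where Prom1 was 16.9, and 812 in dN90 replicate 4, where it was 10.4. Spp1 alone made up 71.5 to 632 of the induced sums, while Krt19 was at 0 to 3.43 and Epcam at 0 to 10.9 normalized counts there. Their part in the Prom1 result was not tested.

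Of 20 further progenitor and biliary surface genes, 18 were in the table and 5 were tested. Spp1 (osteopontin, a Cd44 ligand), the simple-epithelium keratins Krt8 and Krt18 and the adhesion molecule Icam1 rose in skip1 induced, with log2 differences of 4.46, 1.17, 1.21 and 1.44. In skip2 induced 3 of the 5 rose (Spp1 4.39, Krt18 1.97, Krt8 1.90). In dN90 induced 4 of the 5 rose (Spp1 4.04, Krt18 2.25, Krt8 2.20, Icam1 1.61), with a largest limma adjusted p of 0.0140 over all of these calls. The share called over all genes tested was 14.7%, 14.9% and 37.5% in these comparisons, in either direction. Median differences of the 5 were 1.21, 1.90 and 2.20, against -0.02, -0.06 and 0.01 over all genes tested. The mean of 10 was taken over induced and non-induced libraries together, which favours genes high in the induced ones. These counts and medians are therefore no support for the list as a set.

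Cd44 was low and above 0 in every library. Wild type libraries had 3.47 and 4.25 normalized counts, skip1 alone 10.1, 5.88 and 8.71, and skip2 alone 12.99 and 8.42. In skip1 induced libraries it was at 21.98, 14.2, 20.4, 11.4 and 10.96, in skip2 induced at 20.2 and 14.0, and in dN90 induced at 22.5, 12.1, 14.1 and 19.8. Each isoform's induced libraries lay above its own alone libraries, while over all groups skip2 alone replicate 1 lay above 3 induced libraries. The group means of the 3 induced groups, at 15.8 ± 5.12, 17.1 ± 4.38 and 17.1 ± 4.85, lay within their SD.
Cd44 rose in dN90 induced (log2 difference 1.15, SE 0.27, limma adjusted p = 0.00221). With a mean of 7.68 in the non-induced libraries, Cd44 passed the filter through the induced ones only. It did not pass the test in skip1 induced (0.84, 95% interval 0.19 to 1.49, limma adjusted p = 0.0771) or in skip2 induced (0.64, -0.26 to 1.53, limma adjusted p = 0.357). Macrophages also carry Cd44. Summed macrophage markers were at 238 to 364 normalized counts in the non-induced and at 319 to 671 in the induced libraries, which overlap. In the dN90 induced libraries they were at 319 to 530. The part of these markers was not tested. Of 15 hyaluronan genes and Cd44 partners 9 were tested, and 4, 3 and 4 rose in the skip1, skip2 and dN90 comparisons with 0 lower by limma. Of all genes tested, 14.7%, 14.9% and 37.5% were called in either direction in these comparisons. Here too the filter on the mean favours genes that are high in the induced libraries. The list genes that rose were Spp1 (also counted above), Mmp14, a membrane protease that cleaves Cd44 (1.39, 2.26 and 2.09), Msn, which links Cd44 to actin (1.82 in skip1 and 1.41 in dN90), Slc7a11, a cystine transporter that a Cd44 variant stabilizes (1.41 and 1.83), and Hyal2, a hyaluronidase (1.16 in skip2). The genes most like Cd44 over the 18 libraries were Tmem176b (r = 0.877), Ifngr1 (0.867) and Dennd5a (0.856).

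Myc, the transcription factor, was at 0 to 3.45 normalized counts in the non-induced libraries. Wild type libraries had 0 and 1.66, skip1 alone 0, 3.45 and 1.07, and skip2 alone 0 and 0. Skip1 induced libraries had 7.53, 12.03, 8.36, 7.22 and 0, skip2 induced 7.35 and 3.58, and dN90 induced 10.2, 5.10, 7.53 and 10.9. Of the 11 induced libraries only skip1 induced replicate 5, at 0, overlapped the non-induced ones. Myc rose in dN90 induced (log2 difference 2.60, SE 0.56, limma adjusted p = 0.000926, no filter), by 1.22 with a pseudocount of 5. It did not pass the test in skip1 induced (1.55, 95% interval 0.22 to 2.87, limma adjusted p = 0.136), where it was 2.20 (limma adjusted p = 0.00995) without replicate 5, or in skip2 induced (2.63, 0.81 to 4.44, limma adjusted p = 0.0656), where it was 0.98 (limma adjusted p = 0.646) with log2 depth as a covariate.
Of 14 other genes of the Myc network 5 were tested. Mlxipl, the glucose-sensing factor ChREBP, fell in dN90 induced (-1.02, limma adjusted p = 9.83e-05), and 0 were called in skip1 or skip2 induced by limma. Of 17 Myc target genes 16 were tested. Cdk4 rose and Hspd1 fell in skip1 induced (0.84 and -0.77), Cdk4 rose and Hspd1 and Shmt2 fell in skip2 induced (1.54, -1.33 and -1.32), and 3 rose and 3 fell in dN90 induced, among them Tfrc (0.82), Shmt2 (-1.35), Hspd1 (-0.91) and Eif4e (-0.66). The median differences of the 16 were -0.17, -0.07 and 0.19. Over all genes tested, 14.7%, 14.9% and 37.5% were called in either direction in the skip1, skip2 and dN90 comparisons. The counts of Myc target genes called are close to these shares and are no result about them as a set.

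**Figure D2:**
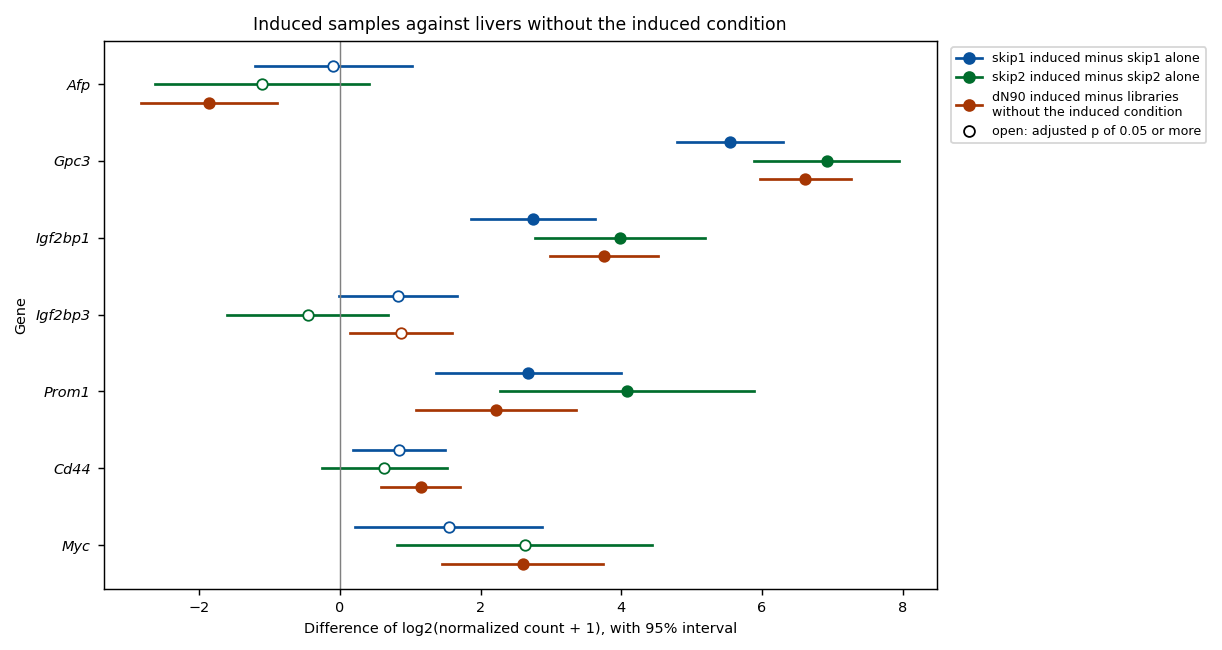
Differences of log2(normalized count + 1) (horizontal axis) for 7 genes (vertical axis) in 3 comparisons; points are limma estimates, lines 95% intervals, and open points have an adjusted p of 0.05 or more. Gpc3, Igf2bp1 and Prom1 are filled and to the right of 0 in all 3 comparisons, with Gpc3 at 5.54, 6.92 and 6.62, and Afp is filled to the left of 0 for dN90 at -1.86.

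Without the filter, and over all 7 measured genes, 3 rose in skip1 induced and the same 3 genes, Gpc3, Igf2bp1 and Prom1, rose in skip2 induced. In dN90 induced 5 rose (those 3, Cd44 and Myc) and Afp fell. Among all genes in those fits 5.75%, 4.43% and 14.5% were called higher, and 10.4% were called lower in dN90. Members whose induced libraries all lay above their non-induced reference numbered 5 for skip1 (Gpc3, Igf2bp1, Prom1, Cd44 and Igf2bp3), a pattern held by 7.91% of all genes, 5 for skip2 (Gpc3, Igf2bp1, Prom1, Cd44 and Myc), where 31.3% of genes held it, and 3 for dN90 (Gpc3, Igf2bp1 and Myc), where 8.19% held it. Afp lay wholly below in skip2, as did 22.1% of genes. The larger number called for dN90 stands beside its larger reference of 7 libraries, and the difference in number was not tested.

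The isoforms alone were compared with wild type to see whether they moved these genes without the induced condition, and 0 of the 7 were called by limma in either comparison, where 0% and 0.0152% of all genes with a mean of at least 10 were called, and 0% and 0.0142% without the filter. At an unadjusted p under 0.05, 1 member stood out in each, Cd44 in both. All 5 alone libraries had more Cd44 (5.88 to 12.99 normalized counts) than both wild type libraries (3.47 and 4.25), as was so for 7.91% of all genes in skip1 alone and 16.3% in skip2 alone, with log2 differences of 0.90 (SE 0.39, limma adjusted p = 1.00) and 1.25 (SE 0.43, limma adjusted p = 0.875). The other members overlapped with wild type. Voom called 0 of the members in both comparisons.

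Between the induced groups 0 of the 7 measured genes were called by limma, where 3.53%, 4.63% and 3.03% of genes with a mean of at least 10 were called, and 1.5%, 2.4% and 1.19% without the filter. At an unadjusted p under 0.05, there were 2 members in skip1 against skip2 induced (Gpc3 and Igf2bp1), 3 in skip1 against dN90 induced (Gpc3, Igf2bp1 and Afp) and 1 in skip2 against dN90 induced (Igf2bp3). Gpc3 was lower in all 5 skip1 induced libraries (58.6 to 112) than in both skip2 induced ones (163 and 192), as were 7.7% of all genes, with a log2 difference of -1.01 (95% interval -1.87 to -0.15, limma adjusted p = 0.203). Against dN90 induced the Gpc3 difference was -0.83 (-1.52 to -0.14, limma adjusted p = 0.193). Both reached the threshold with voom on estimated reads (limma adjusted p = 0.0313 and 0.0212) and with a pseudocount of 5 (0.0445 and 0.0309). With log2 depth as a covariate the Gpc3 difference of skip1 from skip2 induced was -0.33 (limma adjusted p = 0.935), and that from dN90 induced was -0.89 (limma adjusted p = 0.149). Both skip2 induced libraries were the deepest, so this covariate cannot fully separate depth from that group. The SE of the difference from skip2 induced grew from 0.41 to 0.65.
Igf2bp1 was also lower in all 5 skip1 induced libraries than in every other induced library, and 2.85% of all genes were lower in all skip1 than in all dN90 induced libraries. Its differences were -1.24 (-2.25 to -0.22, limma adjusted p = 0.287) against skip2 and -1.01 (-1.82 to -0.19, limma adjusted p = 0.246) against dN90. Afp was 1.36 higher in skip1 than in dN90 induced (0.34 to 2.39, limma adjusted p = 0.194). Igf2bp3 was 0.94 higher in skip1 than in skip2 induced (-0.01 to 1.90, limma adjusted p = 0.309) and 1.03 lower in skip2 than in dN90 induced, written as -1.03 (-2.01 to -0.04, limma adjusted p = 0.353). With log2 depth as a covariate the sign of both Igf2bp3 differences turned (-0.48 and 0.52). For Cd44 the intervals ran from -0.89 to 0.61, from -0.72 to 0.47 and from -0.76 to 0.79 around differences of -0.14, -0.12 and 0.02. Differences inside these intervals, in either direction, were thus not excluded.

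**Figure D3:**
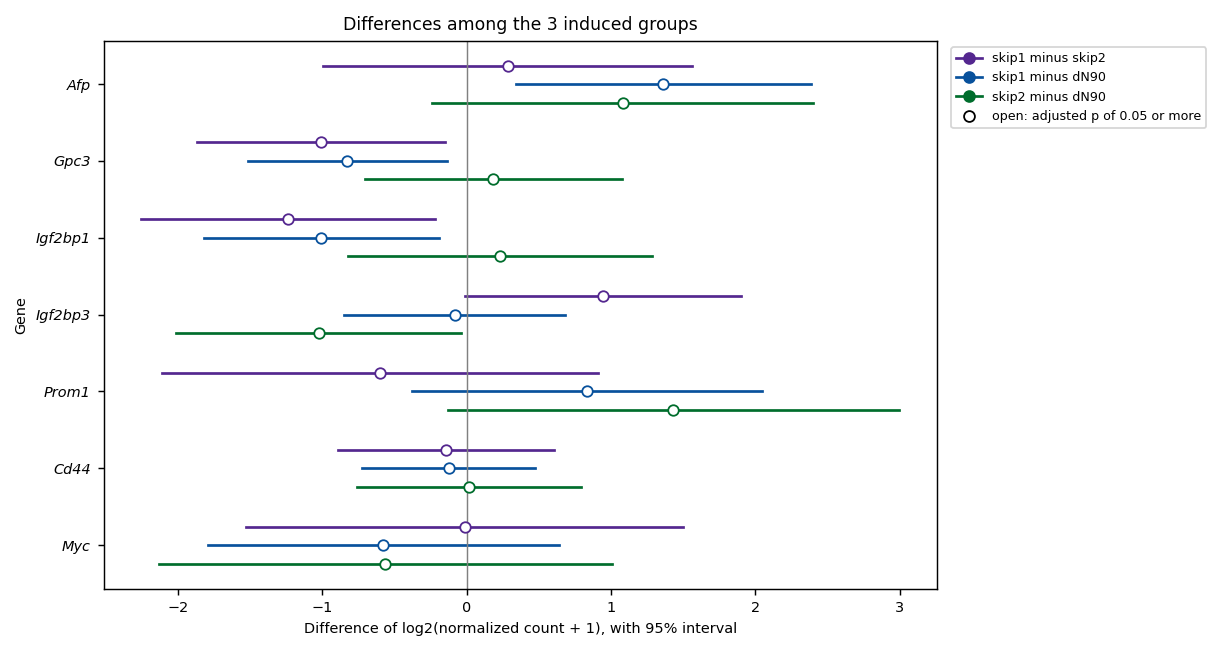
Differences of log2(normalized count + 1) between the 3 induced groups (horizontal axis) for 7 genes (vertical axis), with limma estimates as points and 95% intervals as lines; open points have an adjusted p of 0.05 or more. All points are open, and the intervals of Gpc3 and Igf2bp1 for skip1 against each other group lie below 0, at -1.01, -0.83, -1.24 and -1.01.

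Of the listed genes around the members, H19 was lower in skip1 than in skip2 induced (-4.57, limma adjusted p = 0.00182) and dN90 induced (-2.97, limma adjusted p = 0.00286). Krt8 (-0.87, limma adjusted p = 0.00560) and Krt18 (-0.84, limma adjusted p = 0.0114) were lower in skip1 than in dN90 induced, and Tfrc, the transferrin receptor, was lower in skip1 than in both (-1.64 and -1.35, limma adjusted p = 0.0342 and 0.0204). Has3, a hyaluronan synthase, was higher in skip1 than in skip2 induced (1.23, limma adjusted p = 0.0447). Cell type markers moved with these groups as well. In skip1 against dN90 induced, 4 of 7 endothelial markers tested (largest for Clec4g, 1.25), 3 of 8 macrophage markers (Vsig4, 1.07) and 2 of 10 hepatocyte markers (Ttr, 1.89) were higher by limma. In that comparison 4.63% of all genes tested were called in either direction. The hepatocyte marker Ahsg was lower in skip1 than in skip2 induced (-1.13, limma adjusted p = 0.0177), and Ttr (1.39) and the fibroblast collagen Col3a1 (1.47) were higher in skip2 than in dN90 induced, with limma adjusted p-values of 0.0252 and 0.0223. Their part in these differences was not tested. The induced-minus-alone change was also compared between skip1 and skip2 itself, and 0 of 7 members were called by limma (1 at an unadjusted p under 0.05, 0 with voom), where 0.167% of genes with a mean of at least 10 and 0.0923% without the filter were called. For Gpc3 this difference of changes was -1.37 (95% interval -2.65 to -0.10, limma adjusted p = 0.454), and -0.79 (limma adjusted p = 0.795) with log2 depth as a covariate.

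Subtypes A and B are the 2 tumour subtypes the series sets apart, and here each value is a z-score, the number of SDs of a gene from its mean over the libraries scaled with it, which gives no fold. All 7 genes were above every control library in all 13 subtype A and B libraries, as were 43.6% of the genes in the table for subtype A and 43.6% for subtype B. Since 97.3% and 99.6% of the 1659 genes in the table were called against that control, the 6 of 7 members called for subtype A and 7 of 7 for subtype B are no result about the members. The 1 not called was Afp in subtype A (1.07, SE 0.58, limma adjusted p = 0.0838), which was called when only these groups were fitted (limma adjusted p = 1.52e-05) and by an exact permutation test (adjusted p = 0.0304). The 18 libraries with normalized counts also have z-scores, which followed their log2 values with r of at least 0.997 for each member and were not used as further evidence.
Between subtypes A and B 3 of the 7 were called, where 61.1% of the genes in the table were called, 40.3% higher and 20.9% lower in A. Prom1 was higher in subtype A, with z-scores of 0.61, 1.07, 1.20 and 1.25 against -0.18 to 0.78 (median -0.02) in subtype B. Subtype A replicate 1 was the only A library below any B library. The difference was 0.91 (SE 0.18, limma adjusted p = 0.00145).
Cd44 was lower in subtype A, with z-scores of -0.54, 0.11, -0.01 and -0.07 against -0.44 to 1.35 (median 0.60) in subtype B, and the groups overlapped. Its difference was -0.74 (SE 0.25, limma adjusted p = 0.0184), and -0.60 (limma adjusted p = 0.0795) without subtype A replicate 1. Igf2bp1 was also lower in subtype A, with -0.22, -0.34, 0.26 and 0.25 against 0.07 to 0.79 (median 0.67), a difference of -0.57 (SE 0.14, limma adjusted p = 0.00402). Only subtype B replicate 3 lay as low as the A libraries.

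The other 4 members were not called between the subtypes. Gpc3 was at 1.00, -0.05, 0.40 and -0.02 in A and at -0.33 to 1.16 in B (median 0.52), a difference of -0.18 (95% interval -0.77 to 0.42, limma adjusted p = 0.580). Myc was at -0.12, 0.62, 0.41 and 0.57 in A and at 0.13 to 0.97 in B (median 0.37), a difference of -0.09 (-0.44 to 0.27, limma adjusted p = 0.651). For both genes the A and B libraries overlapped over most of their range. Afp was tightly placed in A, at -0.21 to -0.06, and spread from -0.60 to 2.51 in B, with 4 of the 9 B libraries above 0.7. Its difference was -0.68 (-1.65 to 0.28, limma adjusted p = 0.191). Igf2bp3 was likewise at -0.02 to 0.24 in A and at -0.61 to 2.00 in B, a difference of -0.31 (-1.16 to 0.54, limma adjusted p = 0.495). The SD of Afp was 0.06 in A and 1.04 in B, and that of Igf2bp3 was 0.11 and 0.91. The spread itself was not tested.
Among marker genes in the z-score table, 2 of 5 cholangiocyte markers were lower in A (Pkhd1 -0.76 and Bicc1 -0.66), as were 2 of 7 proliferation genes (Top2a -0.63 and Mki67 -0.58), and 4 of 4 endothelial (Clec4g 0.48) and 3 of 6 hepatocyte markers (Apob 0.58) were higher. Of 9 progenitor and biliary surface genes Itga6 (-0.60) and Sox4 (-0.49) were lower in A, and of 5 Cd44 partners Msn was lower (-0.42). These moved with the subtypes beside Prom1, Cd44 and Igf2bp1, and their part was not tested.

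**Figure D4:**
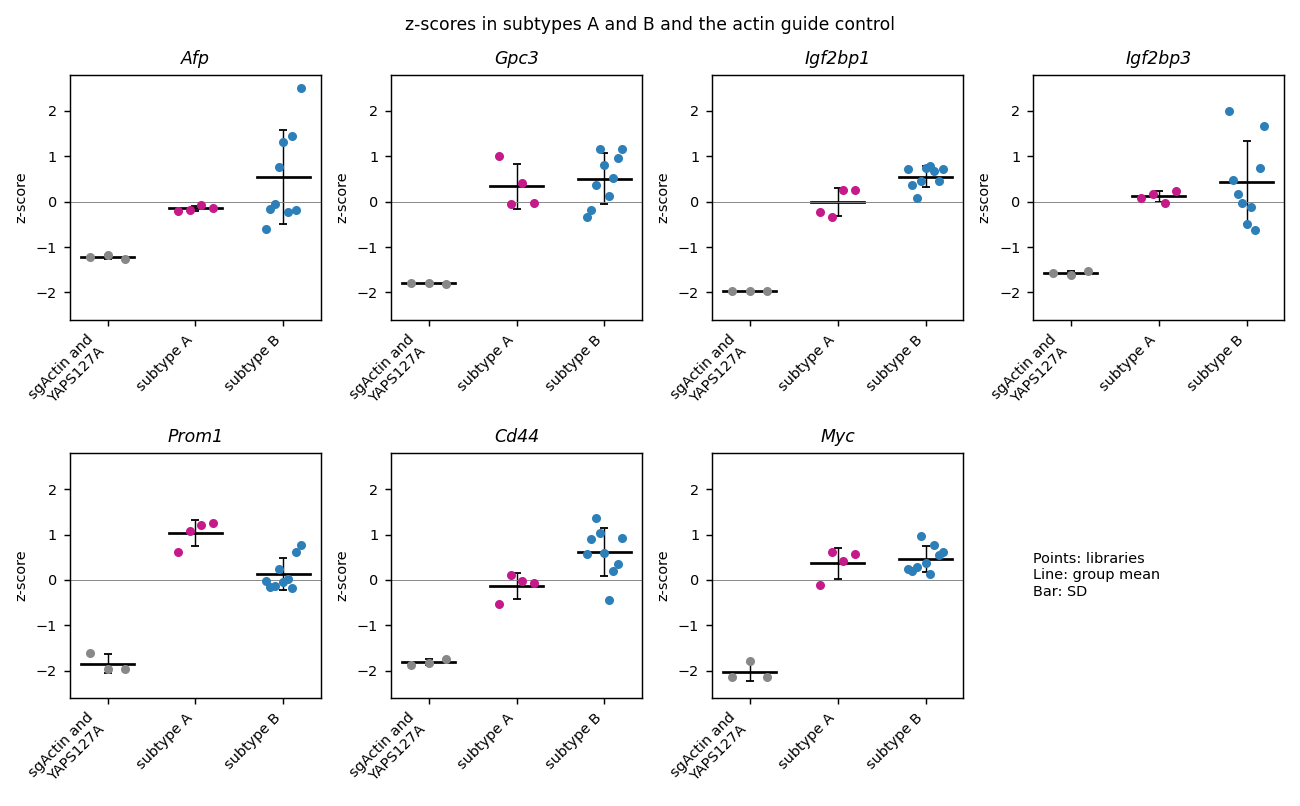
Z-scores of the 7 measured genes (vertical axis) in the sgActin and YAPS127A control (n = 3), subtype A (n = 4) and subtype B (n = 9); points are libraries, lines group means and bars SD. Prom1 averages 1.03 in A and 0.12 in B, Igf2bp1 averages -0.01 in A and 0.55 in B, and every A and B library lies above the control libraries in each panel.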

How the data were processed

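Transcript levels were measured in 34 mouse liver libraries in 9 groups. One deposited table holds, for 14086 genes in 18 libraries, the signal of each gene as a normalized count. The authors named DESeq2, RSEM, STAR and FastQC as tools and mm10 as genome build, per the submitters' processing notes. Tool versions are not given in the sources used here. The second deposited table holds a score, a z-score per gene for 1659 genes, whose selection is not described in the sources used here. In it the 18 libraries and the other 16 were scaled apart, and they were never compared with each other. About 60% of low values were whole multiples, within 0.001, of the value of 1 read, so reads were estimated as the column sum divided by it. For libraries with z-scores alone, depth is unknown.

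Genes with a mean of at least 10 (6592) were tested on log2(value + 1), which understates changes of low genes, with limma 3.58.1 in R 4.3.3, 1 coefficient per group over all 18 libraries, two-sided tests with a trend in the prior, and adjustment by Benjamini-Hochberg. Afp, Prom1, Igf2bp1 and Myc were tested in the same fit on all 14086 genes. The design assumed log values or z-scores for the second table, and limma without a trend was applied to its z-scores of the 16 libraries. The fit was tested on simulated data. The text names all members, up to 4 called genes of largest difference per list and comparison, and the 3 genes most correlated with each member of mean 10 or more. The result of 1 listed gene is not reported here. Genes named with a level and no call were chosen after their values were seen. The members and gene lists were chosen with earlier results of these data known. Replicates were numbered in accession order. Alternatives for the normalized counts were pseudocounts of 0.5 and 5, no filter, quantile scaling, upper-quartile scaling, a minimum mean of 50 and a log2 depth covariate. Others were voom fitted to the estimated reads, only the groups compared, and leaving out each replicate or skip1 induced replicates 1 and 2. For z-scores they were rescaling over the 16 libraries, a trended prior, only the groups compared, leaving out each replicate and an exact permutation test. Combining no filter with the other alternatives for the low members was chosen after seeing the data.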

Additional observations from a re-analysis of the deposited data

Results flagged for a closer look

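Myc in skip1 induced replicate 5 was at 0 normalized counts, far from the other 4 libraries of its group, which were at 7.22 to 12.03. On the log2(normalized count + 1) scale its gap to the nearest of them was 0.821 of the whole range of the group. Of 28 gene and group sets examined in this way this was the only one, and chance alone marks about 1 in 20. In that library 3 reads would be worth 3.19 normalized counts, and its Prom1 (13.2) and Igf2bp1 (5.32) lay inside the range of the other skip1 induced libraries.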

How the results depend on the processing

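No paired analysis was possible because the labels number no replicates, and the numbers used here only name libraries. The Gpc3 rise was called in all 3 induced comparisons under every alternative tried, between 3.93 and 7.95. The number of members called in skip1 induced against skip1 alone (1 of 3 tested) was 2 of 3 with voom and 3 of 7 without a filter. It was 3 of 7 without a filter for skip2 (1 of 3). For dN90 (2 of 3) it was 1 of 1 with a mean of at least 50 and 6 of 7 without a filter. Between skip1 and each other induced group it was 1 instead of 0 with a pseudocount of 5 and with voom. Voom also called Cd44 in skip1 (1.37) and Myc in skip2 (3.74). The number of all genes called, which sets the shares printed beside the members, moved with single libraries. For skip1 induced against alone it was 971, and 568 without skip1 alone replicate 3. For skip2 induced against alone it was 985, and 346 without skip2 induced replicate 1, 508 and 576 without skip2 alone replicates 1 and 2. For skip1 against skip2 induced it went from 233 to 10 without skip2 induced replicate 1 and to 138 and 136 without skip1 induced replicates 1 and 5. For skip2 against dN90 induced it went from 200 to 7 and 308 without skip2 induced replicates 1 and 2, to 115, 36 and 112 without dN90 induced replicates 2, 3 and 4, and to 0 with log2 depth as a covariate. For the difference of changes it went from 11 to 150 without skip2 induced replicate 2, to 19 without skip1 induced replicate 3, and to 4 to 7 without skip2 induced replicate 1, skip1 induced replicate 1, skip1 alone replicates 2 and 3 or either skip2 alone library. Sign changes were limited to differences that were not called, and the cause was not tested. Depth cannot be fully told apart from the skip2 induced group, which holds the deepest libraries. With log2 depth as a covariate, Igf2bp3 was 0.60 in skip2 induced against skip2 alone, differences of skip1 from skip2 induced were -0.063 (Afp), 0.60 (Prom1), 0.17 (Cd44), -0.48 (Igf2bp3) and 2.21 (Myc), Igf2bp3 was 0.036 in skip1 against dN90, skip2 against dN90 gave -0.56 (Gpc3), -0.32 (Cd44) and 0.52 (Igf2bp3), and the Myc difference of changes was 0.82. With voom, Afp was 0.34 in skip1 induced against alone, Igf2bp3 0.095 in skip2 induced against alone and Cd44 -0.076 in skip2 against dN90. With a pseudocount of 5, Myc was 0.12 in skip1 against skip2. Without skip1 induced replicates 1 and 2 together, Igf2bp3 was 0.17 in skip1 against dN90. Leaving out 1 library at a time, ranges that crossed 0 were -0.45 to 0.15 (Afp, skip1 against alone), -1.08 to 0.17 (Igf2bp3, skip2 against alone), for skip1 against skip2 -0.018 to 0.58 (Afp), -0.39 to 0.11 (Cd44) and -0.45 to 0.64 (Myc), for skip1 against dN90 -0.049 to 1.34 (Prom1), -0.27 to 0.013 (Cd44), -0.47 to 0.15 (Igf2bp3) and -0.85 to 0.074 (Myc), for skip2 against dN90 -0.234 to 0.27 (Cd44) and -0.13 to 0.59 (Igf2bp1), for the difference of changes -0.082 to 0.49 (Cd44), and for subtype A against B -0.17 to 0.078 (Myc). The depth, with at most 42 reads of Igf2bp1 and 10 of Afp in a library, limits all low members, and 2 libraries per group limit wild type and skip2.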

Other observations

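Genes of the lists with a mean below 10 were outside the main test, and the following were singled out after their values were seen. Sox4, a transcription factor of progenitor cells, was listed at 0 in all 7 non-induced libraries and was at 1.57 to 18.4 normalized counts in the 11 induced ones, with both skip2 induced libraries (13.1 and 18.4) above the others. Igf2, whose mRNA the Igf2bp proteins bind, was listed at 0 in the 7 and was at 0 to 5.32 in the 11, with 3 at 0. Gpc1, a paralog of Gpc3, was at 1.16 to 8.24 in the 7 and at 0 to 2.78 in the 11. No test result of these genes in the normalized counts is given here.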
